A study of Rattus norvegicus with 36 samples.

Results

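The genes described here encode the proteins of the cytosolic ribosome. They were chosen by symbol alone, as genes whose name starts with Rpl (large subunit) or Rps (small subunit) without the S6 kinases (Rps6k), among probe sets that carry 1 gene symbol. This gave 51 of the 14217 genes with 1 symbol on the array, 35 with a large and 16 with a small subunit name. A gene with several probe sets was represented by the brightest of them, by mean log2 signal over the 36 arrays. Of the 51 genes, 42 are ribosomal proteins proper, 5 are paralogs (Rpl3l, Rpl26l1, Rpl39l1, Rps27l and Rps4y2), 2 are pseudogenes (Rpl37-ps2 and Rps4x-ps1) and 2 are other genes with such a symbol (Rpl7l1 and Rpl-1). A further 36 probe sets name several genes with an Rpl or Rps gene among them and fall outside the rule, so several known ribosomal proteins are not among the 51.

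The data are 36 Affymetrix Rat Genome 230 2.0 arrays of left soleus, the slow postural calf muscle, from female Sprague Dawley rats that were 16 weeks old at the start, with 6 rats and 6 arrays in each of 6 groups. Control rats (CTR) were uninjured and age-matched. The 5 other groups had the spinal cord bruised at T8 by a moderate weight-drop contusion under ketamine and xylazine, received buprinex and ketoprofen afterwards, and were offered a dough diet. Untrained rats were studied 3 days (SCI3d), 8 days (SCI8d) and 14 days (SCI14d) after injury. Trained rats walked on a treadmill from day 7 in sessions of 20 min, with manual body weight support where needed. The SCI8d + TM rats had 3 sessions and the SCI14d + TM rats had 5 days of 2 sessions, and their muscle was taken 8 h after the last one. Surgery, drugs and diet go together with the injury and cannot be told apart from it here, because the methods describe no sham operation. Soleus is whole tissue, so fewer cells of a type and less RNA per cell cannot be told apart.

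Each cytosolic ribosome holds one copy of nearly every ribosomal protein, and the mRNAs of these proteins are among the most abundant in muscle. They share a pyrimidine-rich 5′ end, the 5′ terminal oligopyrimidine (TOP) motif, through which mTOR signalling controls their translation. mRNA level and protein output can therefore part, and only mRNA was measured. Rpl3l is a paralog of Rpl3 that is largely restricted to striated muscle, and it takes the place of Rpl3 in the ribosomes of muscle fibres.

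To show how far these genes carry such a pyrimidine run at their annotated start, the sequence around it was read for the genes that changed on day 3 or day 8. The 6 sequences are from RefSeq on rat build GRCr8, 5′ to 3′ on the gene's strand, with 30 bases before the annotated start and 20 bases from it onward. Capitals mark the longest run of C and T within 20 bases of the start. They lie at chr7:113507971-113508020 on the minus strand for Rpl3, chr10:14258416-14258465 on the plus strand for Rpl3l, chr9:21695688-21695737 on the plus strand for Rpl7l1, chr2:221962264-221962313 on the minus strand for Rpl34, chr8:129163590-129163639 on the plus strand for Rpl14 and chr7:15311314-15311363 on the minus strand for Rps28. Each spans a promoter's end and the first transcribed bases. Rps9 and Rpl37-ps2 are named only.
Rpl3: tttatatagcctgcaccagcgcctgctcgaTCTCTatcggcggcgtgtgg
Rpl3l: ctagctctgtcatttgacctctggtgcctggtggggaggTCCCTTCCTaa
Rpl7l1: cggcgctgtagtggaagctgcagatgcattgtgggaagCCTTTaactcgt
Rpl34: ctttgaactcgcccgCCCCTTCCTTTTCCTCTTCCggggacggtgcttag
Rpl14: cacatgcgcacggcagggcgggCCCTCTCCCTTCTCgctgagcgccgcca
Rps28: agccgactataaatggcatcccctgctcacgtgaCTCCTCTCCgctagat

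The run was 20 bases in Rpl34, 14 in Rpl14, 9 in Rps28 and in Rpl3l, and 5 in Rpl3 and in Rpl7l1. It began after the annotated start in Rps28, Rpl7l1 and Rpl3l, at bases 5, 9 and 10, counting the start as base 1. These sequences do not all hold a long pyrimidine run at the annotated start. RefSeq starts were found for 41 of the 51 genes, 35 of them ribosomal proteins proper. A run of 8 or more C or T bases within 20 bases of the start on the gene's strand was present in 24 of these 35 (68.6%), against 15.1% of 18999 promoters of protein-coding genes. Over 300 bases and on both strands, CCGGAAG was found in 22.9% of the 35 against 11.2% of all promoters, AAGATGGC in 11.4% against 3.92%, CTTTCC in 45.7% against 26.3%, CACGTG in 8.57% against 7.26% and TATAAA in 11.4% against 13.1%. None of these motifs contains another. A match is a description of letters in a window.

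The probe sets of the 51 genes fell into 2 sets by signal. For 38 of the 42 ribosomal proteins proper and for Rpl3l, the mean log2 signal was 13.91 or more, above the 98.7th percentile of all probe sets, while the next brightest gene, Rpl7l1, had 11.17. The 38 bright ribosomal proteins are 26 of the large and 12 of the small subunit. Rpl28, Rpl30, Rpl39 and Rps13 are ribosomal proteins with dim probe sets, and signals of different probe sets cannot be set against each other as levels. The highest signal of a member on any array was 71589.1 and the highest of the whole table was 96232.9. The median SD within groups was 0.15 (log2) for the 37 bright ribosomal proteins other than Rpl3 and 0.49 for the 12 genes with dimmer probe sets.

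Rpl3, a large subunit protein that reaches to the peptidyl transferase centre, had the highest log2 difference of the 51 genes on days 3 and 8. On day 14 the dim probe sets of Rps13 (1.43, SE 0.58, adjusted p = 0.172), Rpl30 (0.82, SE 0.37, adjusted p = 0.228) and Rps4x-ps1 (-1.23, SE 0.78, adjusted p = 0.435) differed by more without passing the test. The signal of Rpl3 was 9597.1 at the lowest, 12868.5 at the median and 20106.3 at the highest of the control arrays. The corresponding values were 24417.3, 35632.4 and 50030.2 in SCI3d, 11809.5, 34659.2 and 38109.4 in SCI8d, and 13800.4, 21812.3 and 26056.9 in SCI14d. Every SCI3d array lay above every control array. In SCI8d, replicate 1 lay among the controls and the other 5 arrays lay above them, and on day 14 the groups overlapped. The mean signal was 13598 ± 3594 (SD, n = 6) in controls and 37464 ± 9478 in SCI3d. Rpl3 rose 2.75-fold on day 3 (log2 difference 1.46, SE 0.24, limma adjusted p = 4.36e-05) and 2.12-fold on day 8 (1.08, SE 0.24, adjusted p = 0.00557). On day 14 it was 1.56-fold higher than in controls without passing the test (0.64, SE 0.24, adjusted p = 0.135).

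Rpl3l, the muscle paralog, went the other way. Its signal ran from 18107.3 to 24400.5 in controls (median 21298.1), from 6498.9 to 14012.2 in SCI3d (median 11542.2), from 14840.4 to 19647.3 in SCI8d (median 18841.2) and from 9017.5 to 17169.6 in SCI14d (median 15851.3). All SCI3d and all SCI14d arrays lay below all control arrays, while the SCI8d arrays overlapped them. Rpl3l fell by 0.99 on the log2 scale on day 3 (SE 0.17, adjusted p = 7.08e-05), to 0.502 of the control level. On day 8 the difference was -0.24 (SE 0.17, adjusted p = 0.446) and on day 14 it was -0.53 (SE 0.17, adjusted p = 0.0755). Between day 3 and day 8 Rpl3l rose by 0.75 (SE 0.17, adjusted p = 0.00527), with every SCI8d array above every SCI3d array.

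**Figure D1:**
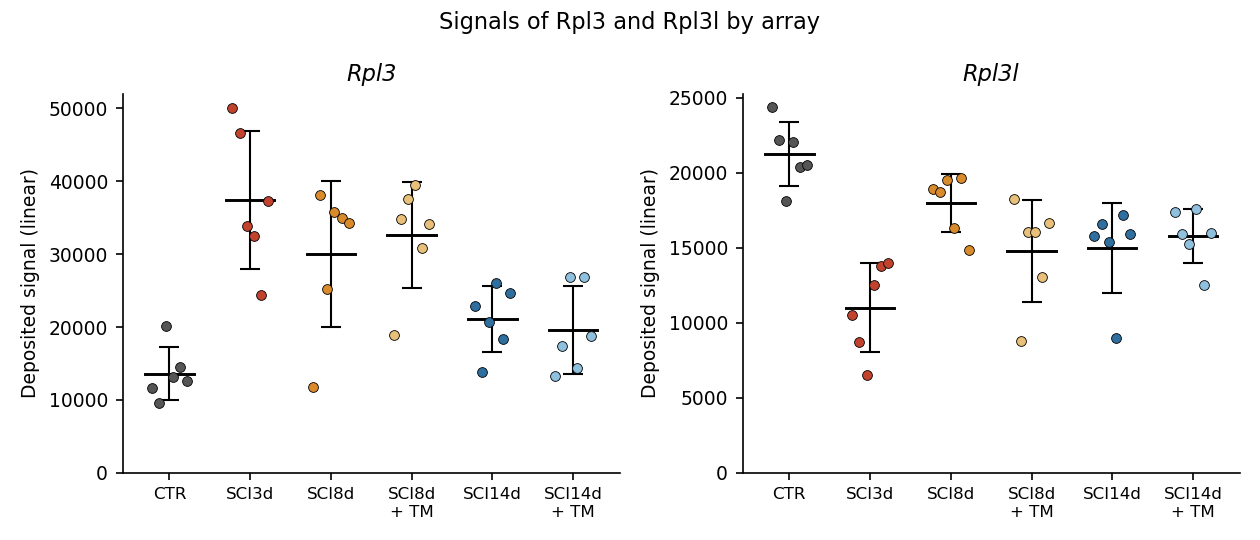
Deposited linear signals of Rpl3 (left) and Rpl3l (right) on the 6 arrays of each group (points), with the group mean (line) and SD (error bar). The 6 SCI3d arrays lie above the controls for Rpl3 and below them for Rpl3l, and SCI8d replicate 1 lies among the controls for Rpl3 with 11809.5.

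The ratio of both signals on one array does not depend on the array's scaling factor. The Rpl3 to Rpl3l signal ratio was 0.657 ± 0.244 (SD, n = 6) in controls with a range of 0.432 to 1.11, and 3.72 ± 1.56 in SCI3d with a range of 1.77 to 5.34. It was 1.71 ± 0.643 in SCI8d, 2.37 ± 0.943 in SCI8d + TM, 1.52 ± 0.719 in SCI14d and 1.29 ± 0.549 in SCI14d + TM. The SCI3d arrays lay apart from the controls, and each of the 4 later groups overlapped them. Because probe sets differ in brightness, the ratio gives the unequal change of the pair and not the share of either mRNA.

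Of the 51 genes, 5 rose and 1 fell on day 3, where 7.22% of all 31042 probe sets were called higher and 9.24% lower at an adjusted p under 0.05. Besides Rpl3, the genes that rose were Rpl7l1, Rpl34, Rps28 and Rps9, and Rpl3l was the one that fell. Rpl7l1, a relative of the large subunit protein Rpl7, ran from 1933.7 to 2214.0 in controls (median 2104.5) and from 2744.4 to 4941.3 in SCI3d (median 3607.4), with no overlap. It rose 1.75-fold (0.81, SE 0.14, adjusted p = 8.00e-05), and a second probe set of the gene rose as well (0.59, SE 0.19, adjusted p = 0.0325). Rpl7l1 then fell by 0.74 between day 3 and day 8 (SE 0.14, adjusted p = 0.00106), and its SCI8d median of 2069.3 was within the control range.

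Rpl34, of the large subunit, ran from 20786.7 to 23850.4 in controls (median 22040.0), from 23208.5 to 34096.1 in SCI3d (median 29995.7) and from 22847.9 to 31497.9 in SCI8d (median 28803.9). In each injured group 1 array reached into the control range. It rose 1.33-fold on day 3 (0.41, SE 0.10, adjusted p = 0.00358) and 1.26-fold on day 8 (0.33, SE 0.10, adjusted p = 0.0367). Rps28, of the small subunit, ran from 15680.1 to 21919.8 in controls (median 18557.7), from 16412.2 to 28414.7 in SCI3d (median 24420.1) and from 18825.3 to 28625.3 in SCI8d (median 24965.2). The control arrays overlapped both groups at their lowest array. Rps28 rose by 0.36 on day 3 (SE 0.13, adjusted p = 0.0490) and by 0.42 on day 8 (SE 0.13, adjusted p = 0.0452).

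Rps9, a small subunit protein, ran from 20615.5 to 27127.6 in controls (median 23236.5) and from 23636.9 to 32570.2 in SCI3d (median 30110.8). Of the 6 SCI3d arrays 2 lay within the control range, and Rps9 rose by 0.32 (SE 0.10, adjusted p = 0.0326). Just outside the threshold on day 3 lay Rpl12 (0.29, SE 0.11, adjusted p = 0.0608). When SCI3d replicate 5, the SCI3d array with the lowest ribosomal protein signals, was left out, 12 genes passed the test on day 3. For this and the later counts with an array left out, the share of all probe sets called in the same fit is not given. Such counts therefore do not tell a change in ribosomal proteins from one over all probe sets.

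On day 8, 4 of the 51 genes rose and 0 fell, where 3.01% of all probe sets were called higher and 3.28% lower. They were Rpl3, Rpl34, Rps28 and Rpl14. Rpl14, of the large subunit, ran from 15355.6 to 17721.6 in controls (median 17159.9) and from 14408.5 to 26545.9 in SCI8d (median 22498.0). Its SCI8d replicate 1 was lower than every control array and the other 5 were higher. Rpl14 rose by 0.38 (SE 0.12, adjusted p = 0.0476), and just outside the threshold lay Rpl13a (0.30, SE 0.10, adjusted p = 0.0622), a common reference gene. By the methods' t-test without adjustment, 23 of the 51 genes passed on day 8, where 20.2% of all probe sets did. The count of 4 depended on single arrays. Without SCI8d replicate 1 it was 13, again without the share over all probe sets beside it. It was 1 without CTR replicate 2, 5 or 6 or any of SCI8d replicates 2 to 6, and 2 without CTR replicate 1 or 4, SCI14d replicate 3, or SCI14d + TM replicate 2 or 4. Rpl3 passed the test in all 36 fits that left out 1 array on either day.

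On day 14, 0 genes rose and 1 fell, where 1.52% of all probe sets were called higher and 1.67% lower. This was Rpl37-ps2, a transcribed pseudogene of Rpl37. Its signal ran from 1618.6 to 1901.6 in controls (median 1784.7) and from 662.5 to 1880.3 in SCI14d (median 1107.0), so that 1 SCI14d array, replicate 4, reached the control range. It fell by 0.64 (SE 0.19, adjusted p = 0.0485), and the call was lost without any one of 25 of the 36 arrays. Without SCI3d replicate 3 or SCI8d + TM replicate 2, 2 of the 51 genes passed. At an unadjusted p under 0.05, 6 of the 51 genes differed from controls on day 14, where 17.7% of all probe sets did, and by the methods' t-test without adjustment 9 did, against 16.9% of all probe sets. The controls are shared by the comparisons of all 3 days.

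Beyond the called genes, nearly all ribosomal proteins had slightly higher means on the first days. The mean log2 signal was higher than in controls for 43 of the 51 genes on day 3, for 46 on day 8 and for 15 on day 14. Their median log2 difference was 0.15 on day 3, 0.23 on day 8 and -0.07 on day 14, beside medians of -0.04, 0.04 and 0.08 over all probe sets. Among the 38 bright ribosomal proteins 37, 38 and 6 had higher means. These genes varied together among arrays, as given below, so counts of genes are not counts of independent results. Per array, the mean of the 37 bright proteins other than Rpl3 was 0.16 ± 0.23 (SD, n = 6) above controls in SCI3d. Replicates 3 and 5 of SCI3d lay below the control mean. In SCI8d it was 0.22 ± 0.16, with replicate 1 below the control mean, and in SCI14d -0.10 ± 0.12. Members known as references or for roles of their own lay within this spread and did not pass the test on any of these days. Rplp0, the stalk protein, differed by 0.14, 0.25 and -0.06 on days 3, 8 and 14. Rps6, the substrate of S6 kinase, differed by 0.14, 0.15 and -0.14. Rpl5 and Rpl11, which bind 5S rRNA together, differed by 0.09 and 0.17 on day 3, by 0.17 and 0.29 on day 8 and by -0.16 and -0.02 on day 14. Rpsa, also known as a laminin receptor, differed by 0.15, 0.24 and -0.09, and Rpl22 by 0.24, 0.30 and -0.11.

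**Figure D2:**
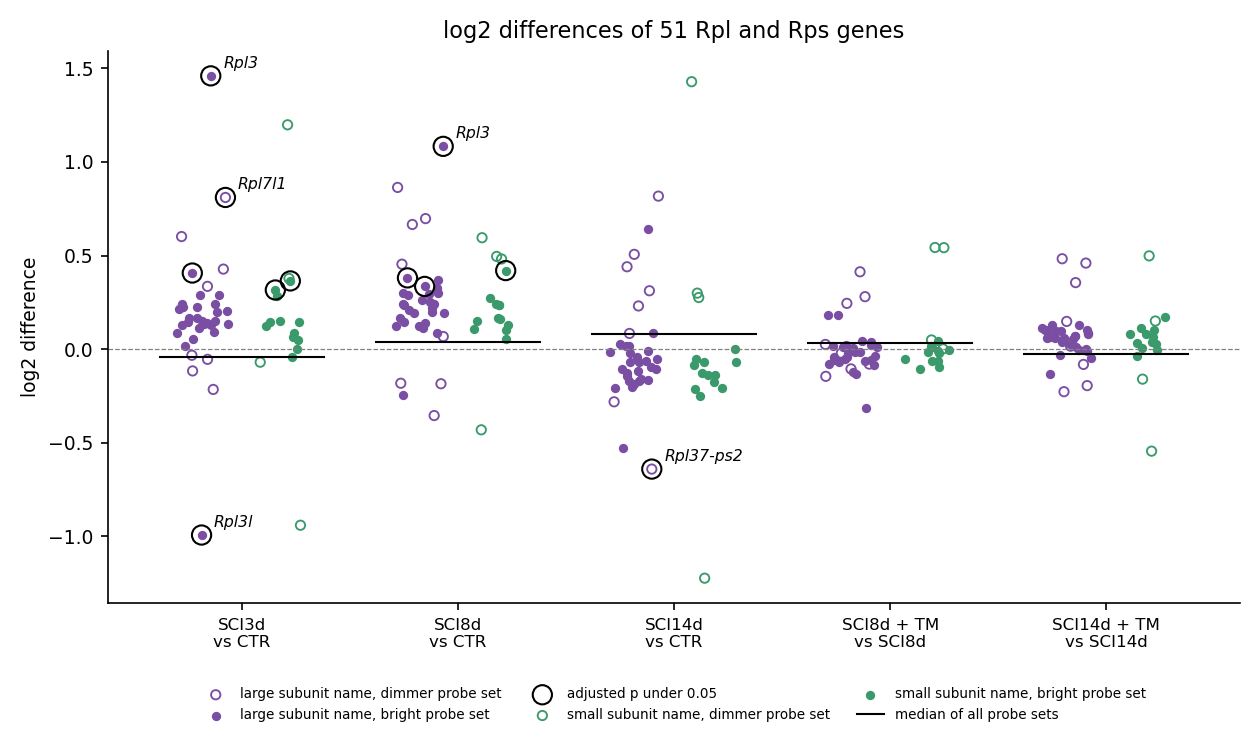
log2 differences of the 51 genes in 5 comparisons (vertical axis), split by subunit name (colour) and brightness of the probe set (filled or open), with circles around genes at an adjusted p under 0.05 and a line at the median of all 31042 probe sets. On day 3 Rpl3 stands at 1.46 and Rpl3l at -0.99. The treadmill comparisons hold 0 called genes, where 0.0% (day 8) and 0.00322% (day 14) of all probe sets were called.

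Paralogs and dim members showed wider differences with larger errors. Rps27l, a paralog of Rps27, had log2 differences of 0.38, 0.48 and 0.30 on days 3, 8 and 14, with adjusted p values of 0.146, 0.0917 and 0.379. Rps4y2, a paralog of Rps4x, differed by -0.07, 0.50 and 0.28, and Rpl39, of the exit tunnel, by 0.43, 0.67 and 0.51. None of these passed the test. Rps13 was 1.20 higher on day 3 with an SE of 0.58 (adjusted p = 0.171), and Rps4x-ps1 was -0.94 with an SE of 0.78. The second probe set of Rpl3 had signals between 173.5 and 936.1 and log2 differences of 0.28 and -0.02 on days 3 and 8 (adjusted p = 0.640 and 0.988), so that the mean over both Rpl3 probe sets passed the test on day 3 and not on day 8. A second probe set of Rps24, with signals between 189.2 and 1410.2, rose by 1.21 on day 3 (SE 0.23, adjusted p = 0.000313), while the bright one was 0.05 higher (SE 0.10, adjusted p = 0.821). The 3 probe sets of Rpsa differed by 0.15 to 0.20 on day 3. Ribosomal protein genes have many processed copies in the genome, and how specific the probe sets are was not checked.

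Each trained group was set against the untrained rats of its own day. In SCI8d + TM against SCI8d, 0 of the 51 genes passed limma's adjusted test, and 0 did at an unadjusted p under 0.05, where 0.0% and 4.33% of all probe sets were called. In SCI14d + TM against SCI14d, 0 genes passed and 1, Rpl26l1, did so unadjusted (0.48, SE 0.22), where the shares over all probe sets were 0.00322% and 5.96%. By the methods' t-test, 0 genes passed on day 8 and 0 on day 14 after adjustment, and 0 and 5 without it, where 4.03% and 5.75% of all probe sets passed that unadjusted test. The median log2 difference of the 51 genes was -0.02 on day 8 and 0.06 on day 14, and the change of the training effect from day 8 to day 14 passed the test for 0 genes, also unadjusted, where 0.0% and 5.34% of all probe sets were called. For Rpl3 the trained groups ran from 18938.2 to 39502.2 (SCI8d + TM, median 34461.9) and from 13260.6 to 26914.4 (SCI14d + TM, median 18070.2), overlapping the untrained groups. The 95% interval of its training difference was -0.31 to 0.67 on day 8 and -0.62 to 0.36 on day 14. Rpl3l ran from 8775.2 to 18242.8 in SCI8d + TM (median 16052.8) and from 12549.0 to 17597.6 in SCI14d + TM (median 15968.8), with training differences of -0.31 (SE 0.17, adjusted p = 0.9998) and 0.10 (SE 0.17, adjusted p = 0.988).

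Against controls, 9 genes rose and 1 fell in SCI8d + TM, where 6.48% of all probe sets were called higher and 5.71% lower. Macrophage, fibroblast and erythrocyte markers rose in this group as well, as given with the marker lists. The lower one was Rpl3l (-0.56, SE 0.17, adjusted p = 0.0278). Rpl3 was the highest (1.26, SE 0.24, adjusted p = 0.000781), followed by Rpl30 (1.11), Rpl39 (0.95) and Rps27l (0.53) with dim probe sets, and by Rpl14, Rpl34, Rpl12, Rpl21 and Rpl13a at 0.31 to 0.40. Rpl21 ran from 12484.3 to 17523.9 in controls and from 17653.7 to 20559.1 in SCI8d + TM, without overlap. By the methods' t-test without adjustment 28 of the 51 genes passed, where 27.3% of all probe sets did. The count of 10 genes was 3 without CTR replicate 1 or SCI8d + TM replicate 4 or 5, 4 without CTR replicate 2, 5 without SCI8d + TM replicate 2, and 6 without CTR replicate 6 or SCI8d + TM replicate 3 or 6. The direct comparison of SCI8d + TM with SCI8d is the one above, in which 0 of the 51 genes passed. That does not show that both groups are alike. In SCI14d + TM, 0 genes passed against controls and 5 did so unadjusted, where 0.358% and 12.1% of all probe sets were called. The methods' t-test without adjustment gave 6 genes there, where 14.6% of all probe sets passed. Without SCI14d replicate 4 or 6 or SCI14d + TM replicate 1, 1 gene passed. The SCI8d against SCI3d comparison held 1 gene that rose and 1 that fell, Rpl3l and Rpl7l1, where 3.66% of all probe sets were called higher and 3.14% lower.

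Group means of the large and small subunit genes lay close to each other. Rpl3 is kept in the large set here. Relative to the control mean, the mean log2 signal of the 26 bright large subunit proteins was 0.22 ± 0.23 (SD, n = 6) in SCI3d, 0.26 ± 0.17 in SCI8d, 0.25 ± 0.11 in SCI8d + TM, -0.06 ± 0.12 in SCI14d and -0.01 ± 0.06 in SCI14d + TM. For the 12 bright small subunit proteins it was 0.14 ± 0.24, 0.19 ± 0.18, 0.16 ± 0.11, -0.13 ± 0.14 and -0.07 ± 0.07 in the same order. The SCI3d arrays spread widely, with replicate 5 below the control mean in both sets and replicate 3 below it in the small set. In SCI8d, replicate 1 was the only array below it. All 6 SCI8d + TM arrays lay above the control mean in both sets.

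**Figure D3:**
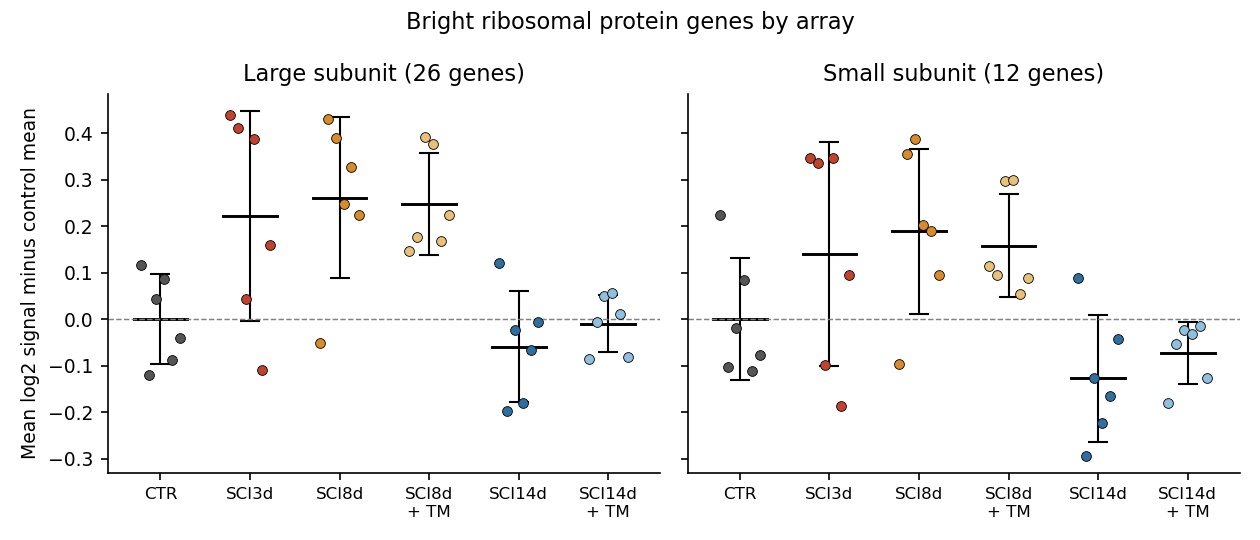
Mean log2 signal of the 26 bright large subunit proteins, Rpl3 among them (left), and the 12 bright small subunit proteins (right) on each array. Values are relative to the control mean (0), with group mean (line) and SD (error bar), n = 6. Large subunit proteins average 0.22 in SCI3d and 0.26 in SCI8d, and 1 array of each of these groups lies below the control mean in the large subunit panel, against 2 SCI3d arrays and 1 SCI8d array in the small subunit panel.

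Within an array, the difference between the large and the small set does not depend on the scaling factor. Over the bright proteins this large minus small difference was 0.00 ± 0.06 in controls (-0.11 to 0.06), 0.08 ± 0.03 in SCI3d (0.04 to 0.14), 0.07 ± 0.05 in SCI8d, 0.09 ± 0.04 in SCI8d + TM, 0.07 ± 0.03 in SCI14d and 0.06 ± 0.03 in SCI14d + TM. Every injured group overlapped the controls. The large set holds Rpl3, with a log2 difference of 1.46 on day 3, and the large minus small difference without Rpl3 was not computed. By the median over genes, the day 3 log2 difference was 0.16 for the large and 0.13 for the small set. On day 8 these medians were 0.24 and 0.16. The lowest control value, -0.11, was that of CTR replicate 1. Over all 35 large and 16 small names, dim genes included, the difference of the SCI3d group was 0.05 ± 0.23, with a spread several times wider.

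The bright ribosomal proteins also varied together among rats of one group. With group means removed, the median correlation between pairs of the 37 bright proteins without Rpl3 was 0.78 over 36 arrays (666 pairs, -0.02 to 0.96), and these pairs share arrays and scaling factors. Their mean was also correlated with the mean of the 307 other probe sets of the same signal range (Pearson's r = 0.56, Spearman's rho = 0.51, and r = 0.57 with group means removed). Without the 2 arrays farthest on the latter measure, r was 0.45. This correlation is a description of arrays that share a scaling step. On SCI14d replicate 4 the other bright probe sets were 0.65 below the control mean.

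Because the differences are small and the signals high, the 37 bright proteins without Rpl3 were followed under 6 array scalings. As deposited, each array is scaled so that its trimmed mean, which leaves out the brightest and the dimmest probe sets, is the same. On day 3 the median log2 difference was 0.15 as deposited and 0.11 to 0.24 under the other 5 scalings, and on day 8 it was 0.22 as deposited and 0.15 to 0.21 under the others. These medians stayed above 0 under each scaling. On day 14 the sign depended on the scaling. It was -0.10 as deposited, -0.23 after centring on the array median and -0.16 with probe sets of the members' whole signal range, and it was 0.08 after quantile normalization, 0.13 with Gapdh and 0.09 with the other bright probe sets. The sign of the training differences depended on the scaling too, with -0.11 to 0.07 on day 8 and -0.08 to 0.12 on day 14. Gapdh scaling moved the median of all probe sets to 0.32 on day 14, and the other bright probe sets moved it to 0.28. SCI14d replicate 4 was moved more than any other array by quantile normalization, Gapdh and the other bright probe sets (0.46, 0.52 and 0.59). Relative to the other bright probe sets, the 37 proteins were 0.42 above controls on that array, where the SCI14d median was 0.05. The day 14 medians under these scalings without that array are not given.

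**Figure D4:**
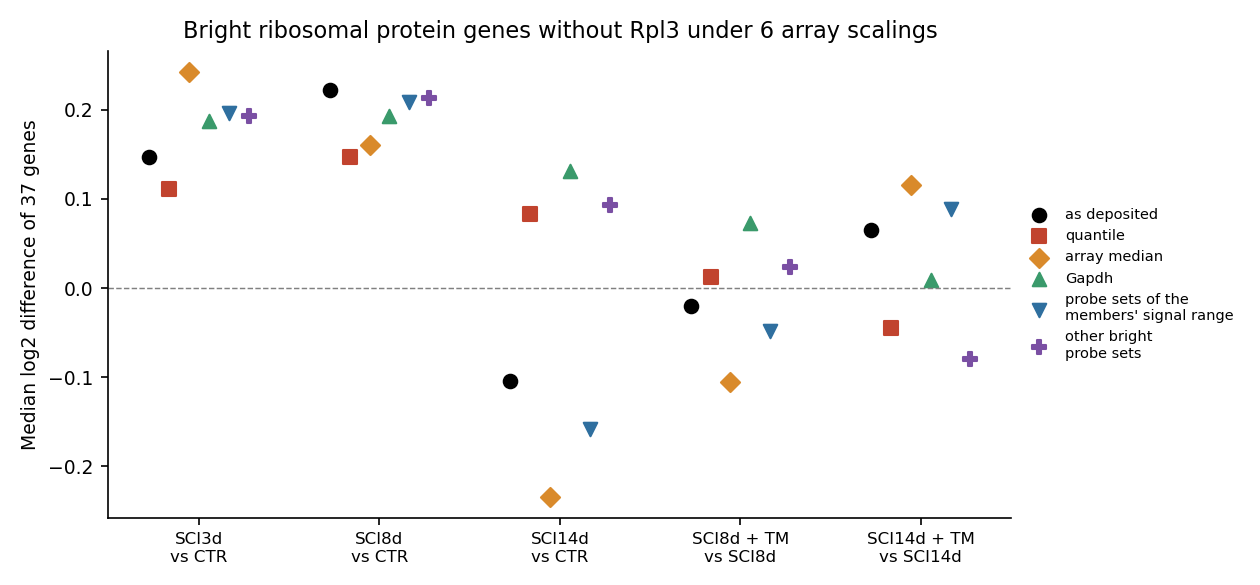
Median log2 difference of the 37 bright ribosomal proteins without Rpl3 (vertical axis) in 5 comparisons under 6 array scalings (symbols). On days 3 and 8 all 6 medians lie between 0.11 and 0.24, while on day 14 they run from -0.23 to 0.13 around 0.

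The calls of Rpl3 and Rpl3l on day 3 were held under each of these scalings and in each fit that left out 1 array. Over 50 alternatives the day 3 log2 difference of Rpl3 was 0.87 to 1.58 and that of Rpl3l was -1.07 to -0.85. Those of Rpl7l1 (0.70 to 0.91) and Rpl34 (0.36 to 0.50) passed in all 50 as well. Rps28 on day 3 passed in 21, Rps9 on day 3 in 42, Rpl14 on day 8 in 14 and Rpl37-ps2 on day 14 in 18.

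Genes that build and control the ribosome were taken from written lists, which were chosen with earlier results of these data known. Ribosome assembly and rRNA synthesis genes make and fold rRNA in the nucleolus and join the proteins to it. Of 24 such genes, 21 rose and 0 fell on day 3, where 7.22% of all probe sets were called higher and 9.24% lower. The median log2 difference of the 24 genes was 0.68. The lowest p values were those of Wdr12 (1.36, SE 0.17, adjusted p = 1.2e-06), of a complex that processes large subunit rRNA, and Tsr1 (1.56, SE 0.21, adjusted p = 2.9e-06), which matures the small subunit. On day 8, 3 of the 24 rose with a median of 0.23, and on day 14 0 changed with a median of 0.11. The shares of all probe sets called higher were 3.01% on day 8 and 1.52% on day 14. The day 3 count was 18 to 21 under the other scalings and 17 to 21 without any one array. The day 8 count was 0 with Gapdh scaling and 0 to 5 without any one array, and the day 14 median was -0.02 after centring on the array median. The shares over all probe sets in these other fits are not given. With training, 0 of the 24 were called on either day, where 0.0% (day 8) and 0.00322% (day 14) of all probe sets were. Almost no probe set was called, so this count could hardly differ from 0 and says nothing particular about these genes.

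**Figure D5:**
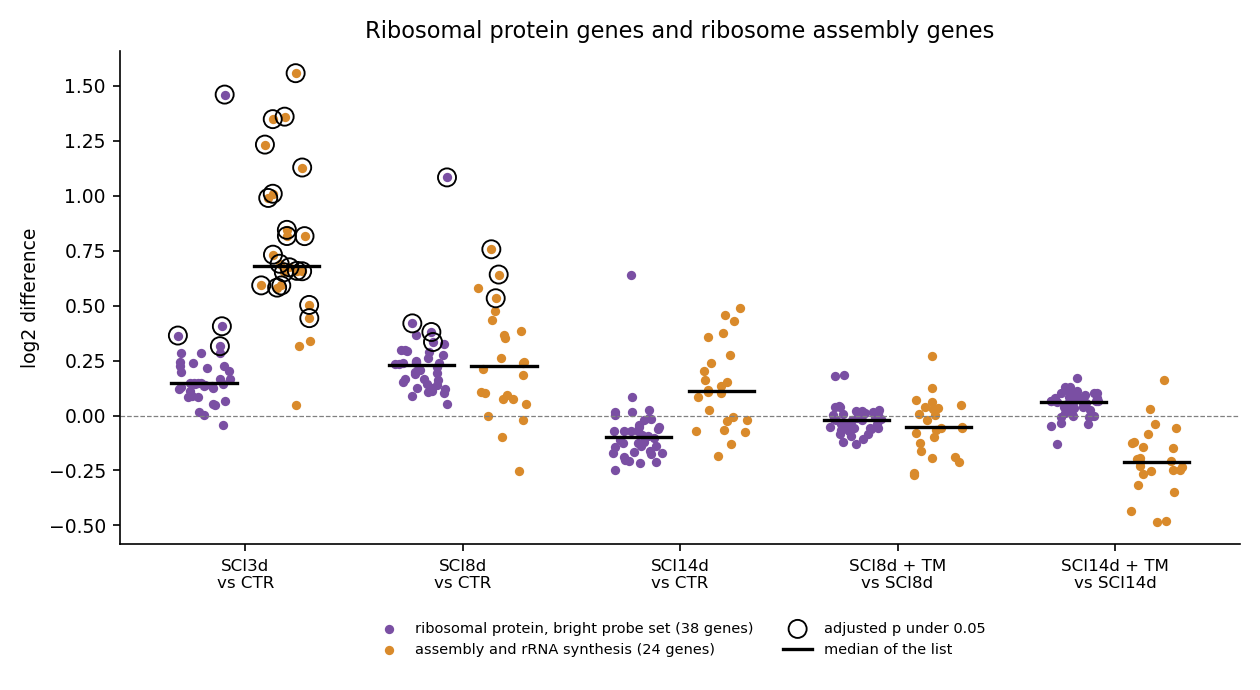
log2 differences of the 38 bright ribosomal proteins and of the 24 assembly and rRNA synthesis genes in 5 comparisons (vertical axis), with circles at an adjusted p under 0.05 and a line at each list's median. On day 3 the medians are 0.15 and 0.68, and on day 8 they are 0.23 and 0.23.

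Over all probe sets, 7.22% were called higher and 9.24% lower on day 3. The corresponding shares were 3.01% and 3.28% on day 8, and 1.52% and 1.67% on day 14. Among 15 measured genes that control ribosomal protein synthesis, 5 rose and 1 fell on day 3. The lowest p values were those of Sesn2 (1.33, SE 0.32, adjusted p = 0.0027), which restrains mTORC1 when amino acids are short, and Akt1, a kinase upstream of mTORC1, which fell by 0.55 (SE 0.13, adjusted p = 0.0031). On day 8 Mtor rose (0.42, SE 0.12, adjusted p = 0.027) and Ddit4, an mTORC1 inhibitor, fell by 0.87 (SE 0.21, adjusted p = 0.011). Mtor, the one gene of the list that rose on day 8, was no longer called after centring on the array median, with Gapdh scaling or with the other bright probe sets. Without any one array, 0 to 1 genes of the list rose and 1 fell on day 8. On day 14 Ddit4 fell by 1.13 (SE 0.21, adjusted p = 0.0025) and no other of the 15 changed, while 2 fell after centring on the array median. Of 13 measured translation genes with a 5′ TOP outside the ribosome, 2 rose on day 3, namely Hnrnpa1 (0.69, SE 0.18, adjusted p = 0.0064) and Nap1l1 (0.46, SE 0.14, adjusted p = 0.017), and 0 changed on days 8 and 14. Their median log2 differences were 0.14, 0.11 and -0.08. Rack1, a scaffold on the small subunit and the 1 measured gene of 4 ribosome components with other symbols, differed by 0.14, 0.23 and -0.05. The 35 probe sets that name several genes of Rpl, Rps or LOC names had 3 that rose on day 3, 5 on day 8 and 0 on day 14, with medians of 0.17, 0.21 and -0.06. Over all probe sets, 7.22%, 3.01% and 1.52% were called higher on these days, so the day 3 count is near that share.

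The labelled tissue was checked with markers of slow muscle. All 8 were measured and 0 passed the test on days 3, 8 or 14. Their median log2 difference was -0.13, -0.02 and -0.35 on these days, and on day 14 all 8 had lower means. Myh7, the slow myosin, ran from 37777 to 90831 over the untrained arrays. Of 7 measured fast muscle markers, 1 rose and 1 fell on day 3, 2 rose and 1 fell on day 8, and 1 rose on day 14, with median log2 differences of 0.72, 1.6 and 1.55. Tnnt3, the fast troponin T, rose on all 3 days (1.42, 2.03 and 1.72, adjusted p = 0.0213, 0.00442 and 0.0246), Tnni2, the fast troponin I, rose on day 8 (1.6, adjusted p = 0.0346), and Myh1, a fast myosin, fell by 1.07 on day 3 and by 1.28 on day 8 (adjusted p = 0.0262 and 0.02). The authors describe an increase of Myh1 after injury instead. Only the brightest probe set of a gene was read here, and the reason for this difference was not tested. The summed fast muscle signal ran from 35664 to 204520 in controls, from 91168 to 174711 in SCI3d, from 91267 to 220457 in SCI8d and from 113967 to 182193 in SCI14d, with overlap. Of 4 measured erythrocyte markers, 3 were called higher on day 3 and again 3 on day 8, and their summed signal ran from 35742 to 48127 in controls, from 40579 to 76464 in SCI3d and from 42005 to 84225 in SCI8d. All 5 tendon markers fell on day 3, when their summed signal was 2068 to 9735 against 7062 to 59387 in controls. Of 6 adipocyte markers 4 fell on day 3, with sums of 7342 to 18934 against 15313 to 44275. Of 10 macrophage markers 1 rose and 1 fell on day 3, with sums of 21704 to 55874 against 18507 to 35702. Of 7 fibroblast markers 1 fell on day 3 and 1 rose on day 8, with sums of 60244 to 127156 on day 3 and 86292 to 249719 on day 8 against 56805 to 203437. On day 14, 1 fibroblast marker rose, and 1 adipocyte and 1 tendon marker fell. Cdh15, the 1 measured satellite cell marker of 3, rose by 0.65 on day 8 (adjusted p = 0.0218). Of 5 lymphocyte and 4 endothelial markers 0 changed on these days. In SCI8d + TM against controls, where 9 ribosomal protein genes rose, 4 of 10 macrophage, 4 of 7 fibroblast, 3 of 4 erythrocyte and 1 of 7 fast muscle markers and Cdh15 rose, while 4 of 6 adipocyte, 2 of 5 tendon and 1 of 4 endothelial markers fell. In that group the summed signal was 27605 to 50373 for macrophage, 163572 to 214151 for fibroblast and 49012 to 68199 for erythrocyte markers. In both training comparisons 0 markers of these lists changed. No marker was listed at 0. The part of these cells in the ribosomal protein signals was not tested. The GAPDH 3′ to 5′ ratio, a sign of RNA quality, was 1.02 to 1.35 on 35 arrays and 1.61 on CTR replicate 3.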

How the data were processed

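Left soleus of 36 rats was measured on one array per rat. The deposited values are linear signal intensities that the authors made with Microarray Suite 5.0. Each array was scaled to a common trimmed mean, which was 799.99 on every array without the outer 2% of probe sets. The number of arrays limits the precision. The methods state a filter of at least 4 present calls over the 36 arrays.

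The log2 of the signals was taken with no offset, and 57 control probe sets were left out. Of the 31042 tested, 20826 name 1 gene, 436 several and 9780 none in the platform annotation, and 49 of the 51 genes were found by identifier in the RefSeq table. One model of 6 groups was fitted with limma 3.58.1 in R 4.3.3 (lmFit, eBayes with an intensity trend). It had 30 residual and 5.45 prior degrees of freedom. Tests were two-sided, and p values were adjusted by Benjamini-Hochberg over all tested probe sets of a comparison, with a limit of 0.05. Groups were taken from the labels. The fit was tested on simulated data. Tables and figures were made with Python 3.11.15, numpy 2.4.6, pandas 2.3.3 and matplotlib 3.10.9.

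The members and lists were chosen with earlier results of these data known. The genes named are all called members where 10 or fewer passed, a written list of members with known roles, those just inside and outside the threshold, and the smallest p values of each further list. Other genes of the lists were counted. Other scalings, an offset of 32, other probe sets of a gene, no trend, a fit of only the groups compared, the GAPDH ratio as a covariate, a filter on dim probe sets, the replicate number as a block, the methods' t-test and leaving out each array in turn were tried as alternatives. Scaling to other bright probe sets, keeping bright proteins alone, adding probe sets that name several genes and leaving out the 3 arrays of highest GAPDH ratio were chosen after seeing the data. The Gapdh scaling used the manufacturer's control probe set.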

Additional observations from a re-analysis of the deposited data

Results flagged for a closer look

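Among 126 groups of 6 arrays, each the signals of a named gene in one group, 8 had an array far from the others, by a gap to the nearest array of more than 0.625 of the group's range on the log2 scale. Chance alone gives such an array in about 1 in 20 groups. The array was SCI8d replicate 1 in 4 of the 8, and it was the lowest of its group each time, with signals of 24399.7 for Rpl11, 18598.2 for Rpl13a, 14408.5 for Rpl14 and 11809.5 for Rpl3. In the other 4 groups the array that stood apart was the lowest as well. Rpl14 had 15418.1 on SCI14d replicate 2, Rpl3 had 18938.2 on SCI8d + TM replicate 1, Rpl39 had 247.3 on SCI8d + TM replicate 3 and Rpl3l had 9017.5 on SCI14d replicate 4.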

How the results depend on the processing

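The day 3 count of 6 genes became 12 after centring on the array median. The day 8 count of 4 became 1 after centring on the array median, with Gapdh, with probe sets of the members' signal range, with the other bright probe sets or in a fit of only both groups compared, 2 without the intensity trend, 9 with probe sets naming several genes and 11 without the dimmest 40% of probe sets. By the methods' t-test it was 1 adjusted and 23 unadjusted, where 20.2% of all probe sets passed unadjusted. The day 14 count of 1 became 2 after centring on the array median or without the dimmest 40%, and 0 with Gapdh, with the other bright probe sets, without the trend, in a fit of both groups, over ribosomal proteins proper, over the bright ones and by the methods' t-test after adjustment, against 9 unadjusted (16.9% of all probe sets). The methods' t-test without adjustment gave 5 for SCI14d + TM against SCI14d (5.75% of all probe sets), 28 for SCI8d + TM against controls (27.3%) and 6 for SCI14d + TM against controls (14.6%). For SCI8d + TM against controls, 10 became 2 after centring on the median, 6 with Gapdh or the other bright probe sets, 5 with the members' signal range, 6 over the bright proteins and 17 with probe sets naming several genes. For SCI14d + TM against controls it became 1 without the 3 arrays of highest GAPDH ratio. For SCI8d against SCI3d, 2 became 0 by the methods' t-test after adjustment and over ribosomal proteins proper, bright or all. With the replicate number as a block, 0 genes passed on day 14 in place of 1, 12 passed in place of 10 for SCI8d + TM against controls, and no other count changed. Rats with the same number had correlations of -0.10 to 0.16, so the numbers do not pair rats. Apart from the unadjusted t-test, these counts are given without the share of all probe sets called in the same fit. They do not show whether ribosomal proteins moved more than other probe sets. The cause of these changes was not tested.

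The median of the 51 genes on day 14, -0.07 as deposited, was 0.10 after quantile normalization, -0.201 after centring on the median, 0.165 with Gapdh and 0.126 with the other bright probe sets. In SCI8d + TM against SCI8d, -0.02 became 0.012 after quantile normalization, 0.076 with Gapdh and 0.026 with the other bright probe sets, and in SCI14d + TM against SCI14d, 0.06 became -0.030 after quantile normalization and -0.079 with the other bright probe sets. The large minus small difference on day 3, 0.05, became -0.014 with all probe sets of a gene averaged and -0.016 over ribosomal proteins proper. On day 8, 0.03 became -0.001 without the 3 arrays of highest GAPDH ratio. In SCI8d + TM against SCI8d, -0.05 became 0.037 over ribosomal proteins proper and 0.017 over the bright ones. In SCI14d + TM against SCI14d, 0.03 became -0.006 over the bright ones.

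Without any one array, the counts ran from 4 to 12 on day 3, 1 to 13 on day 8, 0 to 2 on day 14, 3 to 12 for SCI8d + TM and 0 to 1 for SCI14d + TM against controls and 2 to 3 for SCI8d against SCI3d. They were 0 in both training comparisons and for the change of the training effect. The medians ran from 0.105 to 0.211 on day 3, 0.186 to 0.279 on day 8, -0.115 to -0.041 on day 14, -0.067 to 0.024 in SCI8d + TM against SCI8d and 0.034 to 0.092 in SCI14d + TM against SCI14d. The large minus small differences ran from -0.012 to 0.108, -0.007 to 0.085, -0.003 to 0.083, -0.088 to -0.011 and 0.007 to 0.067 in the same order. Of the values of counts, medians and subunit differences under all alternatives, 903 kept their side or size, 89 moved and 25 changed sign. Of those of single named genes, 3509 kept their side of the threshold, 140 fell short of it and 23 newly passed.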

Other observations

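A control probe set for 5S rRNA, which Rpl5 and Rpl11 bind, had a signal of 1401 on SCI3d replicate 1 and 213 to 515 on the other 35 arrays.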
